A study of Mus musculus with 6 samples.

Results

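The chemokine ligands are small secreted proteins that guide white blood cells along concentration gradients. They were described here in 3T3-L1 adipocytes with and without forced expression of uncoupling protein 1, UCP1. Members were all genes whose symbol in the platform annotation is a Ccl or Cxcl number, Cx3cl1 or Xcl1, on probes with exactly 1 symbol. These were 35 genes on 38 probes, among 18015 genes on 36227 probes in all. The 3 genes with 2 probes were represented by whichever probe averaged higher on the log2 scale across the 6 arrays. A further probe that pairs a member's symbol with other genes was left out.

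3T3-L1 is an established mouse preadipocyte line that fills with lipid after a hormone cocktail. Total RNA was taken 10 days after differentiation and hybridised to one-colour CodeLink mouse whole genome arrays. The control group, 3 arrays, carried only the Tet-off plasmid, which encodes the transactivator of a system that tetracycline switches off. The UCP1 group, also 3 arrays, expressed uncoupling protein 1, a mitochondrial carrier of brown fat that lets protons bypass ATP synthase. Its array titles end in UCP1, UCP2 and UCP3, but all 3 source names give protein 1. The labels do not say whether UCP1 cells also carried the Tet-off plasmid, whether a line was 1 clone, or whether each array had its own culture. The p-values therefore reflect array-to-array spread alone, and that spread may be technical.

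Chemokines fall into families named for the spacing of their first cysteines, and each binds G protein-coupled receptors on the cells it attracts. CXC ligands with an ELR motif attract neutrophils, CXC ligands induced by interferon attract activated lymphocytes, and CC ligands of the Ccl2 group attract monocytes. In fat, adipocytes and their precursors are a known source of Ccl2, and release of such ligands goes along with entry of macrophages in obesity. Many of these genes are transcriptional targets of NF-kB, a factor that binds short elements with a run of G, a run of T and a pair of C.

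Promoter sequence was held for 25 of the 35 genes in the RefSeq table of GRCm38.p6, as windows of 300 bases that start 250 bases before the transcription start. Not in that table were Ccl2, Ccl4, Ccl5, Ccl7, Ccl11, Ccl24, Cxcl5, Cxcl11, Cxcl16 and Cxcl17. A search on both strands for an NF-kB-like motif of 10 letters (3 G, any 2 bases, 3 T and 2 C) found a match in 5 of these 25 genes, Ccl9, Ccl20, Cxcl1, Cxcl2 and Cxcl3. The motif lay in 1.63% of the 32851 windows of the table. Below are the 150 bases before the start of the 3 ELR ligands with a match, which lie on chromosome 5 in the order Cxcl3, Cxcl1, Cxcl2, with Cxcl15, which has no match, between Cxcl3 and Cxcl1. They are followed by Ccl9, which was higher on all UCP1 arrays, and by its neighbour Ccl6, which was not. Among genes with a window, Ccl3, Ccl19 and Ccl27a were also higher on all UCP1 arrays but had no match. Ccl20, Cxcl2 and Cxcl3 had a match and groups that overlapped. A link between motif and reading was not tested. Capitals mark the motif matches on either strand, and a match describes letters, not a bound site. The windows are chr5:90891095-90891244, chr5:90903749-90903898 and chr5:90785951-90786100 on the plus strand, and chr11:83578637-83578786 and chr11:83593088-83593237 on the minus strand.
Cxcl1: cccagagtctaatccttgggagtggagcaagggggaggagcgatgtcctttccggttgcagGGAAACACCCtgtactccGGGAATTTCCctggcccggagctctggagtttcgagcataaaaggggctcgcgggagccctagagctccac
Cxcl2: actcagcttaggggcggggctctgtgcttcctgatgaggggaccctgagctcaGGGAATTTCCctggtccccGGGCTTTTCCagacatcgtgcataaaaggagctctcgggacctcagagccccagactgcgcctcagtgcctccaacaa
Cxcl3: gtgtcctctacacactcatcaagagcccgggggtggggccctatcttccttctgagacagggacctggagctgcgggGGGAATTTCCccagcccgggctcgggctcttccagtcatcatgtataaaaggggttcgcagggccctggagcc
Ccl9: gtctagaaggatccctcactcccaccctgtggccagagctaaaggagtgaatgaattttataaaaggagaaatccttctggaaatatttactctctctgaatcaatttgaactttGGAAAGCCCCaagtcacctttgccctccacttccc
Ccl6: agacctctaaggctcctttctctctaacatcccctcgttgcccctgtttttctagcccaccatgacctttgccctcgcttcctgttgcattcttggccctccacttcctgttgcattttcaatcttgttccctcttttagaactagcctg
The decamer GGGAATTTCC stood in all 3 ELR promoters, from 71 bases before the start in Cxcl1, 97 in Cxcl2 and 73 in Cxcl3. Cxcl1 held a second match on the minus strand and Cxcl2 a second one on the plus strand. In Ccl9 the match lay on the minus strand, and the Ccl6 window had none.

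Array medians lay between 1.043 and 1.048, so an intensity near 1 is that of a middling spot. The 99th percentile was lower on UCP1 arrays, at 185.3 to 225.0, than on control arrays, at 255.3 to 278.6. Among brighter probes, arrays correlated at 0.993 to 0.995 within controls, 0.985 to 0.992 within UCP1 and 0.976 to 0.988 between groups. Ucp1 read 0.222, 0.232 and 0.278 on control arrays and 2.34, 2.02 and 1.54 on UCP1 arrays, in accord with the labels. Adipoq and Fabp4, which mark adipocytes, read 880 ± 45.6 and 722 ± 118 in controls and 818 ± 125 and 693 ± 155 in UCP1 (SD, n = 3).

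The values used here hold no detection mark. As a yardstick, 504 probes for olfactory receptors, which odour-sensing neurons use, served as spots with little target. A gene was called expressed in a group when its spot exceeded the 95th percentile of those probes on each of the 3 arrays. That limit lay between 4.50 and 5.26. Ucp1 stayed under it on the arrays where it was forced, so a reading below the limit is no proof of absence. A reading above it is no proof of a transcript either, because probes differ in how well they bind. For that reason levels of different genes are not ranked here. Cd79a, a B cell marker, lay above the limit in both groups.

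By this limit, 6 of the 35 chemokine ligands were expressed in control adipocytes, against 35.1% of all genes. They were Ccl4, Ccl6, Ccl7, Ccl9, Cx3cl1 and Cxcl17. Ccl2 joined them in UCP1 adipocytes, which made 7, against 33.1% of all genes. Just inside the limit in controls was Ccl9, at 4.99 on control 3 where the limit was 4.68. Just outside was Ccl25, at 4.66 on control 1 where the limit was 5.05. Another 10 genes lay above the array median on all 6 arrays, and 16 lay below it on all 6. With the median as the limit 17 genes were expressed in each group, and with the 99th percentile of the olfactory probes, 13.6 to 17.3, only Cxcl17 was.

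**Figure D1:**
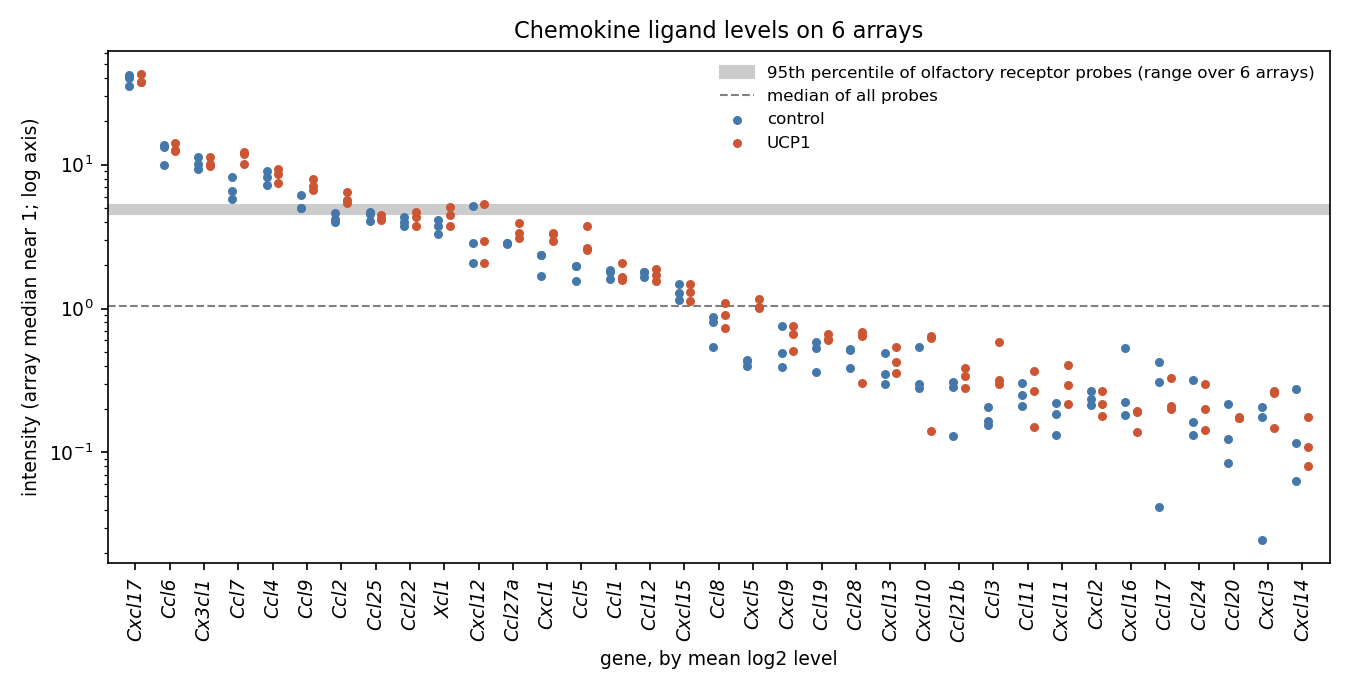
Intensity (log axis, array median near 1) of each of the 35 chemokine ligand genes on the 3 control and 3 UCP1 arrays, 1 point an array, ordered by mean log2 value. The grey band spans the olfactory receptor limit over the arrays, 4.50 to 5.26, and the dashed line is the median of all probes. Each array has its own limit, so control points of Ccl9 at 4.99 lie inside the band but above theirs, and Ccl2 lies above it on the UCP1 arrays alone.

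Of the 35 genes, 2 rose in UCP1 adipocytes and 0 fell (limma, adjusted p under 0.05 over all probes). The genes that rose were Cxcl5 and Ccl7, ligands for neutrophils and for monocytes. Among all 18014 genes tested, 1.13% rose and 2.92% fell, 4.05% in either direction, and the members' count rests on 2 genes. No member had an unadjusted p under 0.05 on the lower side, and 7 had one on the higher side, where all genes had 15.1% and 5.73%. In 9 members the 3 UCP1 arrays lay wholly above the 3 controls, a pattern of 8.09% of all genes. In 0 members they lay wholly below, against 17.1% of all genes. These 9 were Cxcl5, Ccl7, Ccl5, Cxcl1, Ccl2, Ccl9, Ccl3, Ccl19 and Ccl27a. For each of the 9 an exact two-sided permutation test over arrays gave p = 0.1, the smallest that 3 against 3 arrays allow. Groups that do not overlap always give this value, so the test adds nothing to the pattern.

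On the log2 scale 29 of the 35 differences were above 0, with a median of 0.22, against 39.9% of all genes above 0 and a median of -0.08. After quantile normalization, which removes the dimmer top of the UCP1 arrays, 31 of 35 members and 51.0% of all genes were above 0, with medians of 0.23 and 0.01. With 1 array left out, the members' median ranged from 0.10 without control 2 to 0.32 without control 1. The count above 0 was then 23 without control 2, control 3 or UCP1 1, and 26 to 30 without each of the others. The 7 expressed members had a median of 0.11, from 0.01 to 0.76, which was 0.05 without UCP1 1, 0.19 without control 1 and 0.17 without control 2. Ccl2, at 0.46, is among the 7 only through its UCP1 arrays, so the set depends in part on the difference it summarises. The 6431 genes expressed in either group had a median of -0.15.

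**Figure D2:**
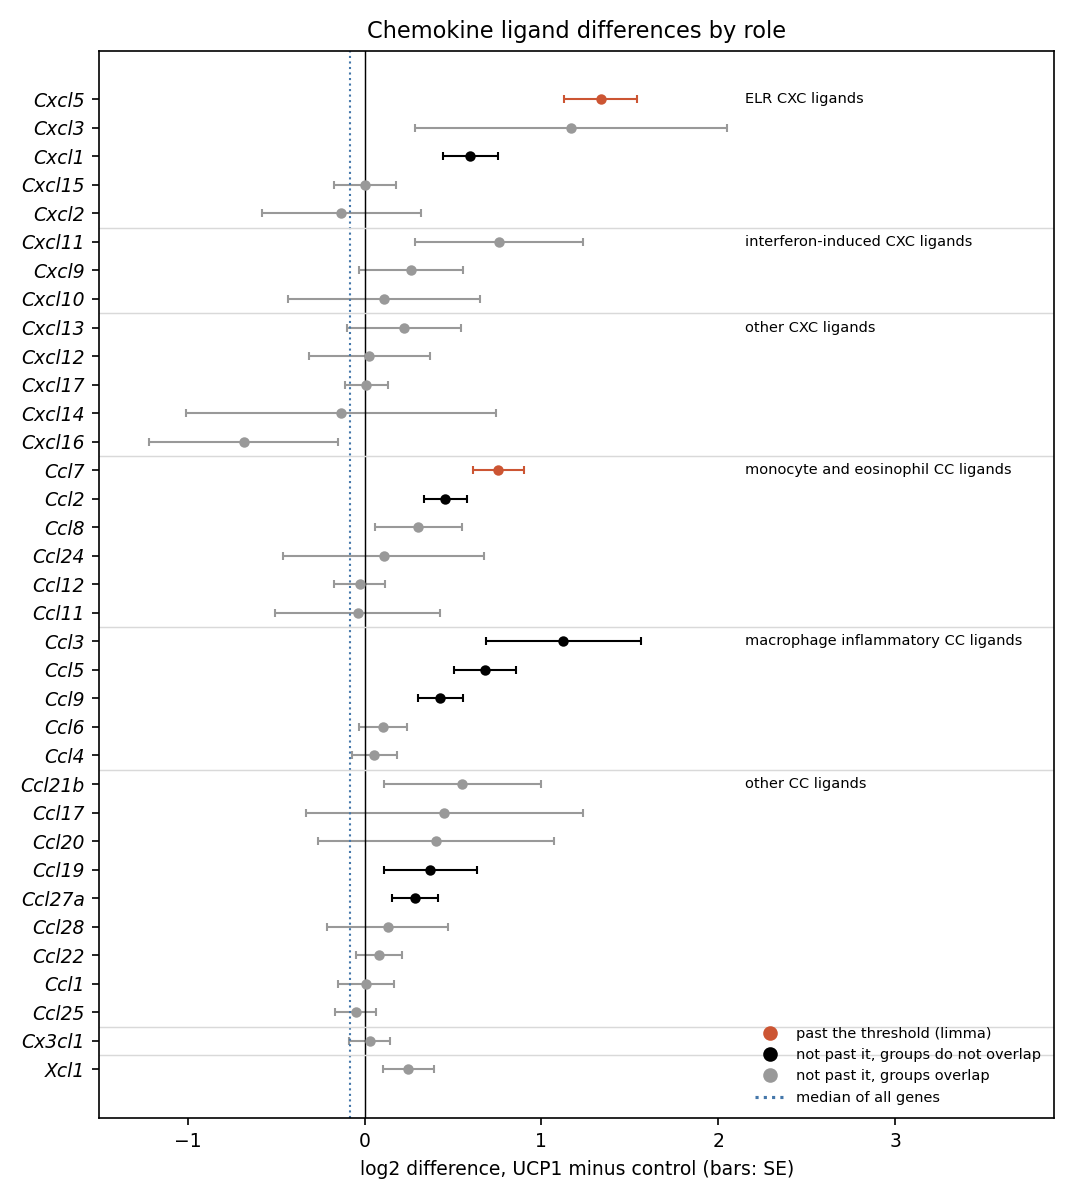
Log2 difference, UCP1 minus control, with its SE (limma, 3 arrays a group) for the 35 genes grouped by role. Orange points, Cxcl5 and Ccl7, passed the threshold, black points did not pass but had groups that did not overlap, and grey points had overlapping groups. The dotted line is the median of all genes, -0.08.

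Among the ligands for monocytes and eosinophils, 1 of 6 rose and 0 fell, where 1.13% of all genes rose and 2.92% fell. The count rests on 1 gene and does not describe the group. Ccl7, also called MCP-3, attracts monocytes through CCR2 and related receptors. It read 8.18, 5.77 and 6.54 on the control arrays and 12.3, 10.1 and 11.9 on the UCP1 arrays. Every UCP1 reading exceeded every control reading, a rise of 1.69-fold and a log2 difference of 0.76 ± 0.142 (SE, adjusted p = 0.0188 by limma). The call was lost without control 2 (adjusted p = 0.0761), control 3 (0.0542) or UCP1 3 (0.132).

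Ccl2, or MCP-1, is the classical ligand of CCR2 and the best known monocyte attractant made by fat cells. It read 4.62, 4.16 and 3.98 in controls and 5.64, 5.45 and 6.44 in UCP1. The groups did not overlap, at 0.46 ± 0.121 (SE), but the difference did not pass (limma, adjusted p = 0.0689). It passed after quantile normalization (adjusted p = 0.0327), after cyclic loess (0.0396), among the brighter probes alone (0.0287), with array weights (0.0233) and without UCP1 2 (0.0476).

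In the RefSeq order of chromosome 11, Ccl2 and Ccl7 open a run of 6 members with 0 other protein-coding genes between them. The other 4, in order, are Ccl11, Ccl12, Ccl8 and Ccl1. Ccl11, or eotaxin, which attracts eosinophils, read 0.151 to 0.366 over the 6 arrays, with a difference of -0.04 ± 0.467 (SE). Ccl12, or MCP-5, read 1.56 to 1.88, with a difference of -0.03 ± 0.145 (SE). Ccl8, or MCP-2, read 0.536 to 1.09, at 0.30 ± 0.246 (SE), and Ccl1, a ligand of CCR8, read 1.59 to 2.08, at 0.01 ± 0.156 (SE). The groups overlapped in each of these 4 genes. Ccl24, a further eosinophil attractant that lies on chromosome 5, read 0.132 to 0.320, also with overlap.

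Among the 5 ELR ligands, a class that attracts neutrophils, 1 rose and 0 fell, where 1.13% of all genes rose and 2.92% fell. The 1 that rose was Cxcl5. It read 0.401, 0.430 and 0.437 in controls, brighter than 32.4% to 33.7% of all spots there. On UCP1 arrays it read 1.01, 1.17 and 1.03, close to the array median. The groups were far apart, and the rise was 2.52-fold, a log2 difference of 1.33 ± 0.209 (SE, adjusted p = 0.0078 by limma). Adding 0.171 to every intensity first gave 1.06. Both groups lay under the limit for expression, where the fold is sensitive to the treatment of dim spots. The call was lost without UCP1 3 (adjusted p = 0.0625).

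Cxcl1, also called KC, is a CXCR2 ligand that many stromal cells release under inflammatory stimuli. It read 2.36, 1.70 and 2.36 in controls and 3.30, 2.95 and 3.37 in UCP1, without overlap. At 0.60 ± 0.156 (SE) it did not pass (limma, adjusted p = 0.0651), and it passed after quantile normalization (0.0479), with robust eBayes (0.0371), with array weights (0.0338), among the brighter probes (0.0191) and without UCP1 2 (0.0458). Cxcl2 and Cxcl3, whose promoters carry the same decamer as that of Cxcl1, were dim. Cxcl2 read 0.178 to 0.267 and Cxcl3 0.0248 to 0.266 over the 6 arrays. Their differences were -0.13 ± 0.448 (SE) and 1.17 ± 0.882 (SE), and the groups overlapped in both. Cxcl15, or lungkine, which lung epithelium makes, read 1.12 to 1.48 with a difference of 0.00 ± 0.177 (SE). Its other probe read at or under 0.341 on every array, with a difference of -3.03 ± 2.18 (SE) that rests on a reading below 0 on UCP1 2.

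**Figure D3:**
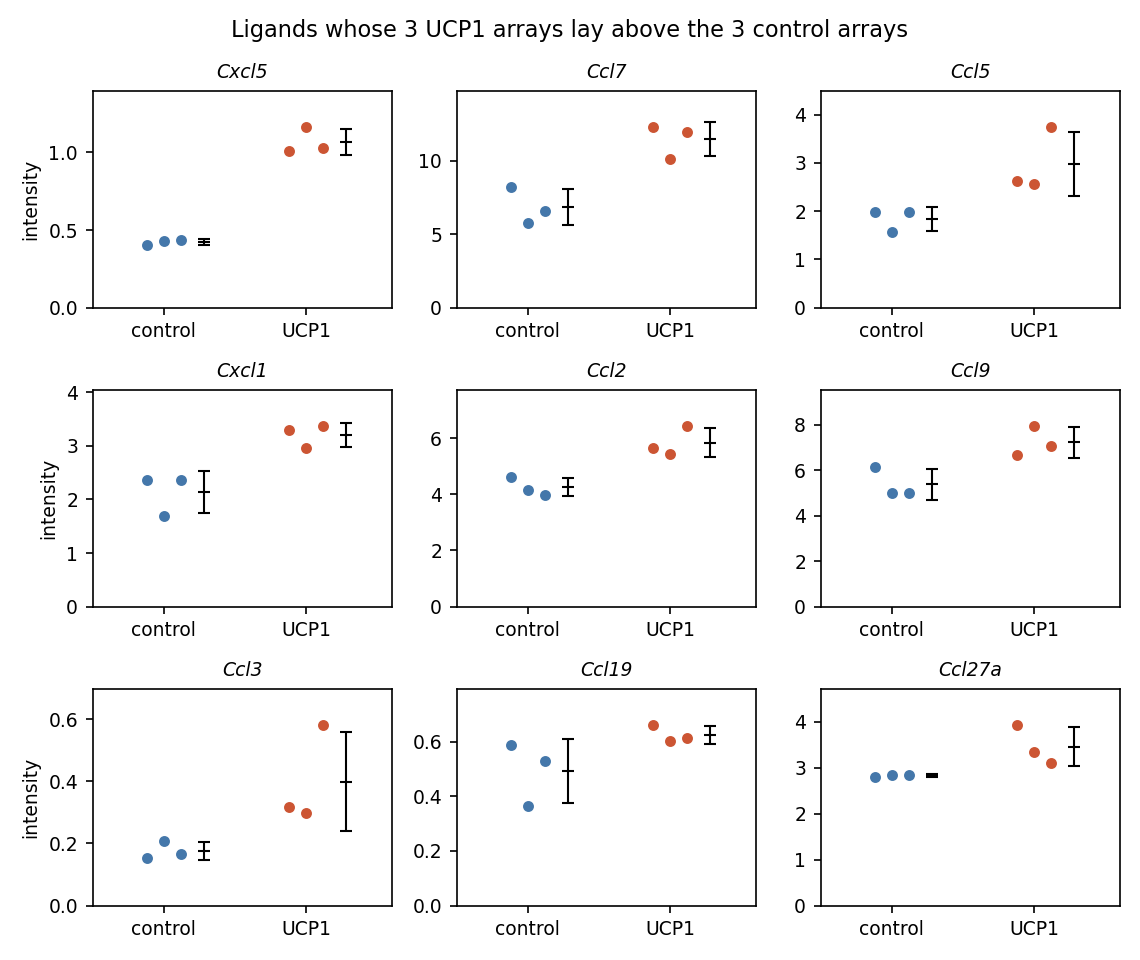
Intensity on each array for the 9 ligands whose 3 UCP1 arrays all lay above the 3 control arrays, with the mean and SD of each group beside the points (n = 3). Each panel has its own axis from 0, and Cxcl5, Ccl3 and Ccl19 lie at or below about the array median.

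The 5 macrophage inflammatory ligands form a second run on chromosome 11, in the order Ccl5, Ccl9, Ccl6, Ccl3 and Ccl4, again with 0 other protein-coding genes between them. None passed the threshold (limma), while 3 had an unadjusted p under 0.05 on the higher side, and in those 3 the groups did not overlap. Of all genes 5.73% had such a p and 8.09% had UCP1 arrays wholly above the controls. Ccl9, or MIP-1 gamma, a ligand of CCR1, read 6.16, 4.99 and 4.99 in controls and 6.65, 7.96 and 7.05 in UCP1, at 0.43 ± 0.128 (SE, adjusted p = 0.0995). It passed with array weights (0.0426) and among the brighter probes (0.0454).

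Ccl5, or RANTES, attracts T cells and monocytes. It read 1.98, 1.56 and 1.98 in controls and 2.63, 2.56 and 3.75 in UCP1. The UCP1 readings were all higher, with UCP1 3 the highest, at 0.68 ± 0.175 (SE, limma, adjusted p = 0.0625). It passed among the brighter probes (0.0167), with array weights (0.0198), with robust eBayes (0.0316) and without UCP1 2 (0.0301).

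Ccl3, or MIP-1 alpha, was dim, at 0.154, 0.207 and 0.165 in controls and 0.316, 0.297 and 0.582 in UCP1. Its difference was 1.12 ± 0.438 (SE, limma, adjusted p = 0.207). Ccl4, or MIP-1 beta, read 8.15, 7.22 and 9.10 in controls and 9.32, 8.63 and 7.46 in UCP1. Ccl6, a ligand of CCR1 in rodents, read 13.6, 13.2 and 9.93 in controls and 14.2, 12.6 and 12.4 in UCP1. Both overlapped, at 0.06 ± 0.129 (SE) for Ccl4 and 0.11 ± 0.136 (SE) for Ccl6. So the neighbours Ccl9 and Ccl6, shown above with and without the motif, were both above the limit, and the difference between their responses was not tested.

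Several of these ligands are abundant in macrophages, so macrophage markers were read beside them. Of 10 measured, 1 rose and 0 fell, where 1.13% of all genes rose and 2.92% fell. Lyz2, the lysozyme of macrophages and neutrophils, rose from 1.08 ± 0.256 to 3.04 ± 0.822 (SD, n = 3), at 1.48 ± 0.217 (SE, limma, adjusted p = 0.00571). Cd14, a lipopolysaccharide co-receptor, was the 1 marker above the limit, at 12.8 ± 2.42 and 10.8 ± 0.525. The other 8 read 0.922 or less on every array, under the array median, and overlapped between groups. Their differences were 3.17 for Mrc1 (with a reading below 0 on control 1), 0.38 for Cd163, 0.29 for Itgam, 0.21 for Aif1, -0.14 for Ptprc, -0.19 for Tyrobp, -0.36 for Adgre1 and -0.57 for Fcgr1, with SEs from 0.215 to 2.21. The 10 summed to 13.03 to 18.59 on control arrays and 16.1 to 16.7 on UCP1 arrays, a sum that is mostly Cd14 and shows little of the rest. Their part in the ligand readings was not tested.

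Neutrophil markers summed to 11.3 to 12.9 in controls and 12.6 to 19.3 in UCP1, and of 6 measured, Camp, an antimicrobial peptide precursor, rose by 1.29 ± 0.229 (SE, adjusted p = 0.0140, limma). S100a8, above the limit in both groups, made up most of that sum, with 12.4 on UCP1 1. Camp itself read 0.442 to 1.46, under the limit on every array. S100a9 and Mpo lay below 0, at -0.81 and -0.65, and Ltf, S100a8 and Elane above, at 0.57, 0.28 and 0.20, all with overlap. Of all genes 1.13% rose and 2.92% fell. Of T cell markers 0 of 6, of B cell markers 0 of 4 and of endothelial markers 0 of 6 passed, where their counts at an unadjusted p under 0.05 were also 0. Sums were 5.26 to 5.80 and 5.68 to 6.13 for T cells, 7.67 to 8.66 and 7.27 to 7.54 for B cells, mostly from Cd79a, which was above the limit, and 1.43 to 2.25 and 1.70 to 2.70 for endothelium, in controls and UCP1. Among 7 preadipocyte and fibroblast markers, Pdgfra, a receptor of adipocyte precursors, rose by 0.67 ± 0.160 (SE, adjusted p = 0.0484) and Thy1, a surface glycoprotein of fibroblasts, by 0.80 ± 0.172 (SE, adjusted p = 0.0319, limma). Those 2 calls stand beside 1.13% of all genes that rose. Pdgfrb, a receptor of mural cells and fibroblasts, had groups that did not overlap, at 0.52 ± 0.147 (SE, limma, adjusted p = 0.0823). Dlk1 was at 0.34, while Cd34, Col1a1 and Col3a1 lay below 0, at -0.29, -0.21 and -0.06, all with overlap. The 7 summed to 665 to 896 in controls and 682 to 884 in UCP1, of which Col3a1 alone gave 532 to 734 and 511 to 669, so the sum does not show the other markers. Of 7 adipocyte markers measured, 0 passed (limma) and 6 lay below 0, with a median of -0.115, where all genes had -0.0834. Cebpa was the lowest, at -0.69 ± 0.248 (SE, limma, adjusted p = 0.167). In a culture of mixed stages, a change in the number of cells of a type and a change in RNA per cell cannot be told apart.

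Cxcl17, a ligand of mucosal tissues, had the only spot above the stricter limit. It read 39.9, 35.3 and 41.7 in controls and 42.6, 37.8 and 37.3 in UCP1. The groups overlapped almost fully, at 0.01 ± 0.123 (SE). Cxcl12, which holds CXCR4-bearing cells in bone marrow and stroma, read 5.15, 2.83 and 2.08 in controls and 2.07, 5.29 and 2.93 in UCP1. Here the spread within each group was wide, with control 1 and UCP1 2 high, and the difference was 0.03 ± 0.342 (SE). Cxcl13, which attracts B cells, Cxcl14, which many epithelia make, and Cxcl16, a membrane-tethered ligand of CXCR6, read 0.0629 to 0.540 over the 6 arrays, all below the array medians and with overlap.

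The interferon-induced ligands Cxcl9, Cxcl10 and Cxcl11, which attract activated T cells through CXCR3, all read below the array median on every array, from 0.133 to 0.752. Their differences were 0.26 ± 0.292, 0.11 ± 0.543 and 0.76 ± 0.474 (SE). None passed and all 3 overlapped. With errors of this size in dim spots, a change as large as that of Ccl7 need not pass.

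Cx3cl1, or fractalkine, is tethered to the membrane by a stalk and binds CX3CR1 on monocytes. Its 2 probes gave different results. The brighter read 11.3, 9.25 and 10.0 in controls and 11.2, 9.74 and 10.1 in UCP1, at 0.03 ± 0.118 (SE, limma, adjusted p = 0.934). The dimmer read 7.404, 5.847 and 5.997 in controls and 4.31, 4.43 and 4.13 in UCP1, without overlap, and fell by 0.57 ± 0.125 (SE, limma, adjusted p = 0.0332), where 2.03% of all tested probes fell and 0.8% rose. It lay above the expression limit on every control array and on no UCP1 array. The probe rule took the brighter one, so Cx3cl1 is not among the calls, and which transcripts each probe reads was not tested. Ccl22 and Ccl17, which flank Cx3cl1 on chromosome 8 with 0 other protein-coding genes between, attract T cells through CCR4. Ccl22 read 3.72 to 4.66 and Ccl17 0.0418 to 0.422, and both overlapped, at 0.08 ± 0.128 and 0.45 ± 0.783 (SE).

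**Figure D4:**
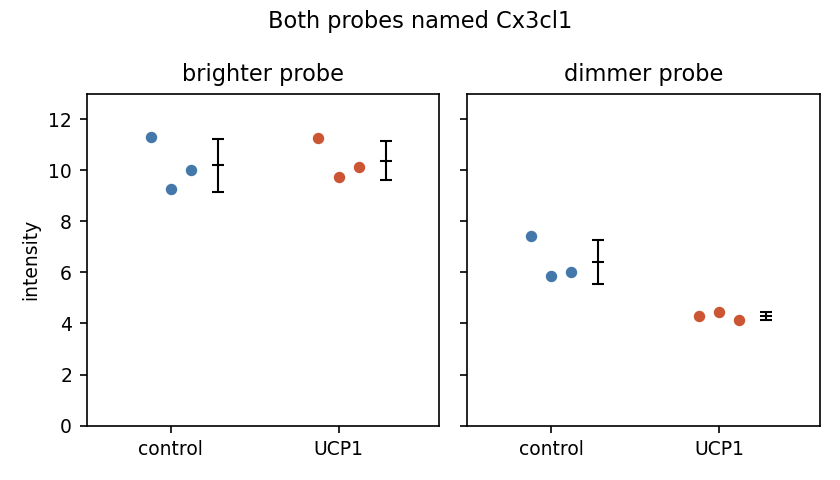
Intensity of both probes named Cx3cl1 on each array, with the mean and SD of each group (n = 3) and an axis from 0. The brighter probe overlaps between groups, while the dimmer lies at 5.85 to 7.40 in controls and 4.13 to 4.43 in UCP1.

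The 9 other CC ligands, mostly ligands that place lymphocytes in lymphoid organs, skin and gut, had 0 calls and differences from -0.05 to 0.55. Ccl27a, a skin T cell attractant, read 2.80, 2.85 and 2.85 in controls and 3.94, 3.34 and 3.11 in UCP1. The groups did not overlap, at 0.28 ± 0.130 (SE, limma, adjusted p = 0.295), whereas its other probe overlapped, at 0.10 ± 0.176 (SE). Ccl19, a ligand of CCR7 on dendritic cells, read 0.587, 0.363 and 0.528 in controls and 0.662, 0.601 and 0.612 in UCP1, at 0.37 ± 0.261 (SE). Ccl19, Ccl21b and Ccl27a have near-identical copies in the mouse genome that a probe need not tell apart. Ccl25, which guides thymocytes and gut lymphocytes, read 4.07 to 4.66, at -0.05 ± 0.116 (SE). Ccl20, Ccl21b and Ccl28 read 0.0845 to 0.689. Xcl1, or lymphotactin, read 4.11, 3.76 and 3.30 in controls and 4.44, 5.11 and 3.77 in UCP1, with overlap, at 0.25 ± 0.143 (SE).

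The receptors for these ligands were read next. Of 23 chemokine and decoy receptors listed, 22 were measured and 0 passed in either direction (limma), with 0 at an unadjusted p under 0.05, 11 above 0 and 11 below. Of all genes 4.05% were called and 39.9% were above 0, so no call among 22 is near the background. The smallest p belonged to Cxcr1 and Ccr7, both dim, at 1.00 ± 0.528 and 1.96 ± 1.10 (SE). Ccr2, the receptor of Ccl2 and Ccl7, had a mean of 0.319 in controls and 0.190 in UCP1, and Cxcr2, the receptor of Cxcl5 and Cxcl1, of 0.238 and 0.260. Only Ccr4, Cxcr3 and Xcr1 were above the limit, in both groups, with differences of -0.05, -0.07 and -0.10.

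Of 46 genes of the NF-kB pathway and its cytokine inputs, 42 were measured, 1 rose and 1 fell (limma). Of the differences 17 were above 0 and 25 below, with a median of -0.11. Among all genes 1.13% rose, 2.92% fell and 39.9% were above 0, with a median of -0.08, so the list lay near the background. Tlr2, a receptor for bacterial lipoproteins that activates NF-kB, rose from 4.95 ± 0.413 to 8.36 ± 0.901 (SD, n = 3), at 0.75 ± 0.123 (SE, limma, adjusted p = 0.00963). Cebpd, a transcription factor of adipogenesis and the acute phase, fell from 36.6 ± 5.82 to 18.2 ± 2.96, by 1.01 ± 0.153 (SE, limma, adjusted p = 0.00685). At an unadjusted p under 0.05 there were 3 on the higher and 14 on the lower side, against 5.73% and 15.1% of all genes. Nfkbia, the inhibitor that NF-kB itself induces, was among the latter, at -0.47 ± 0.161 (SE, adjusted p = 0.144), and its value was read after the ligands, outside the naming rule. Tnf and Il1b, cytokines that induce chemokines, had control means of 0.618 and 0.142 and UCP1 means of 0.481 and 0.168, and were also named after their values were seen.

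**Figure D5:**
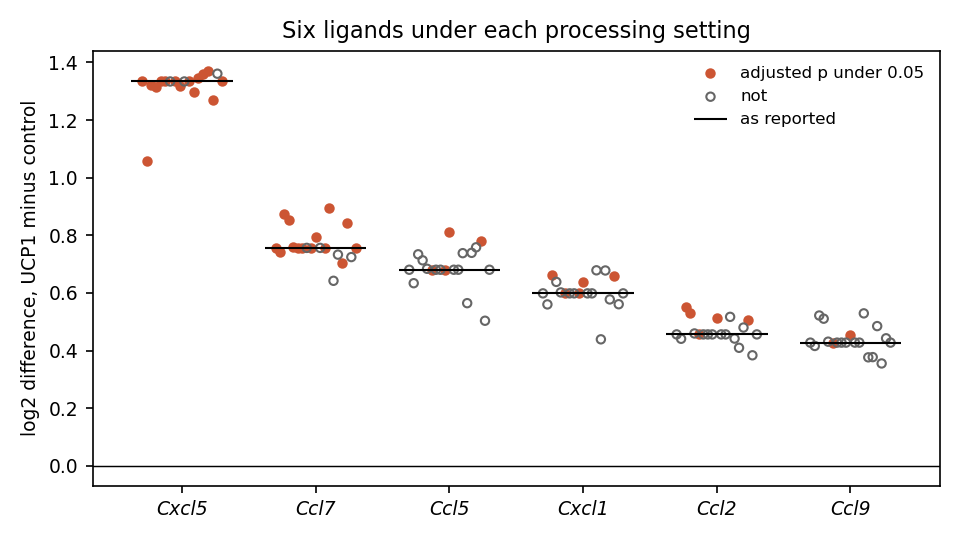
Log2 difference, UCP1 minus control, of 6 ligands as reported (black line) and under each alternative processing (points, filled where the adjusted p was under 0.05). All values lie above 0, from 1.06 to 1.37 for Cxcl5, 0.64 to 0.89 for Ccl7, 0.50 to 0.81 for Ccl5, 0.44 to 0.68 for Cxcl1, 0.38 to 0.55 for Ccl2 and 0.36 to 0.53 for Ccl9.

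Across the alternatives, then, these 6 ligands kept 1 direction while the calls varied. Their groups did not overlap, so leaving out or weighting arrays could not turn the sign. Other eBayes forms, the ordinary test, the block and limiting the probes do not alter the difference itself. Taking each gene's probe of smallest p repeated the reported fit, and the passes of Cxcl5 and Ccl7 counted here include it. Cxcl5 passed in 14 of 17 alternatives and Ccl7 in 13 of 18. Ccl2 and Cxcl1 passed in 5 of 18, Ccl5 in 4 and Ccl9 in 2. With limma without the intensity trend, and with an ordinary test per probe, none of the 35 passed, where these fits called 0 and 3 of all 36116 probes.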

How the data were processed

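The authors deposited 1 table of linear spot intensity values of 6 one-colour CodeLink arrays, each array scaled to nearly the same median. Scanner software, background correction and scaling are details not given in the sources used here. A value of -9999 was treated as missing. Before log2, readings of 0 or less were replaced by that array's lowest positive reading. Of 36227 probes, 36116 with at least 2 values per group were tested with limma 3.58.1 in R 4.3.3 (lmFit, then eBayes with trend by intensity, two-sided), with Benjamini-Hochberg adjustment over all tested probes and a threshold of 0.05. The functions were tested on simulated data. The number of arrays limits the precision.

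Of all probes 21615 had 1 gene symbol, 681 several and 13931 none. Gene identifiers of all 35 members matched RefSeq (GRCm38.p6), with 0 symbols changed. The members, lists and promoter motif were chosen with earlier results of these data known. Members that were expressed, or past the threshold, were named with their values, as were, of each pathway list, called genes or the 2 with the smallest p. Other members with values, among them the non-overlapping ones, and the other list and marker genes named were chosen after their values were seen.

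Alternatives were an offset of 0.171 (the 10th percentile of positive values), quantile normalization, cyclic loess, median centring, brighter probes only, complete probes only, array weights, robust eBayes, eBayes without trend, an ordinary test per probe, a block for replicate number, leaving out each array, other probe rules and other expression limits.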

Additional observations from a re-analysis of the deposited data

How the results depend on the processing

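The count of ligands that rose, 2, was 4 with quantile normalization and 5 among the brighter probes alone (where Cxcl5 was not tested). It was 4 with robust eBayes, 6 with array weights, and 0 with eBayes without the trend and with the ordinary test. It ranged from 0 to 5 when each array was left out. Of all genes 1.13% rose as reported, 2.27% with quantile normalization, 1.38% with robust eBayes and 1.76% with array weights. Among the brighter probes 3.07% of genes rose, and 17 members were tested. Without UCP1 2, the fit with 5, 1.47% of all genes rose, and without UCP1 3, the fit with 0, 0.3% did. The count of ligands that fell was 0 in every fit of the representative probes and 1, Cx3cl1, with any probe of a gene. The count expressed, 6 in controls and 7 in UCP1, was 1 and 1 with the 99th percentile of the olfactory receptor probes and 17 and 17 with the median of all probes, and did not move when an array was left out. The median of the expressed ligands, 0.11, was 0.23 with quantile normalization, 0.22 with cyclic loess and 0.05 to 0.19 when each array was left out. The NF-kB count, 2, was 5 among the brighter probes, 4 with robust eBayes, 6 with array weights, 0 without the trend and 0 with the ordinary test. It was 1 to 9 when each array was left out (9 without UCP1 2, 1 without UCP1 3). Of all genes 2.92% fell as reported, 10.5% among the brighter probes, 3.57% with robust eBayes and 6.52% with array weights. Without UCP1 2 the share that fell was 5.48%, and without UCP1 3 it was 0.378%. The NF-kB count thus moved in part with the calls over all genes. The receptor count was 0 throughout. Over all probes, calls were 289 higher and 732 lower as reported, 567 and 446 with quantile normalization and 517 and 460 with cyclic loess. All genes' median went from -0.08 to 0.01 and -0.00 there.

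Differences near 0 changed sign, with no call but that of the other Cx3cl1 probe. With array weights Ccl4 was -0.0041 and Cxcl17 -0.015, and with the probe of smallest p Cx3cl1 was -0.57, its called probe. With each array left out, Ccl4 ranged from -0.030 to 0.144 (below 0 without control 2 or UCP1 1), Ccl6 from -0.039 to 0.189 (below 0 without control 3), Cxcl17 from -0.059 to 0.062 and Cx3cl1 from -0.039 to 0.105 (both below 0 without control 2 or UCP1 1). The causes were not tested.

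Control and UCP1 titles share closing digits, but the labels give them no meaning, and deviations of same-numbered arrays correlated at -0.24, -0.0071 and 0.104. Those of differently numbered arrays ran from -0.364 (control 3 with UCP1 2) to 0.351 (control 1 with UCP1 2). With the replicate number as a block, 2 ligands rose and 0 fell, and Cxcl5 (adjusted p = 0.0209) and Ccl7 (0.0142) stayed past the threshold with limma. Dim spots limit what can be seen, since SE reached 0.882 in Cxcl3 against 0.118 in Cx3cl1.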
